A study of Mus musculus with 6 samples.

Results

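The receptors described here are those through which neurotrophins and the ligands of the GDNF (glial cell line-derived neurotrophic factor) family act on motor and sensory neurons. There were 7 members, Ntrk2, Ntrk3, Ngfr, Ret, Gfra1, Gfra2 and Gfra3, fixed by name as receptor genes of these families. Each had 1 probe set annotated to that symbol alone, so 7 of the 28815 probe sets in the deposited table were members, against 19920 genes that could be named in the same way. The tissue was mouse cervical spinal cord at embryonic day 11.5, dissected so as to leave out floor plate and dorsal cord, and its RNA was measured on whole-transcript arrays. The Nkx2.9 knockout label stood on 3 arrays and the wild-type label on 3, each lettered A, B and C, and both groups had the same stage and tissue. The study set out to identify effectors of the homeodomain factor Nkx2.9 (gene Nkx2-9) as spinal accessory motor neurons develop. The labels gave no description of the allele or the strain, and did not say whether an array held 1 embryo or a pool, and p-values therefore speak only of how these arrays vary.

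Neurotrophins bind receptor tyrosine kinases of the Trk family and the shared receptor p75. TrkB, from Ntrk2, binds brain-derived neurotrophic factor and neurotrophin 4, TrkC, from Ntrk3, binds neurotrophin 3, and p75, from Ngfr, binds all neurotrophins and modulates the response of Trk receptors. Ligands of the GDNF family bind a membrane-anchored co-receptor, GFRα1 for GDNF, GFRα2 for neurturin and GFRα3 for artemin, and the complex activates the tyrosine kinase Ret. Developing motor neurons and the sensory neurons of dorsal root ganglia express many of these receptors and depend on them for survival and for growth of their axons towards target tissue.

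The DNA just upstream of a receptor's start site is where a regulator could bind, and NK2-class homeodomain proteins, relatives of Nkx2.9, are known to bind the letters TNAAGTG. RefSeq promoter sequences on GRCm38.p6 were examined for 3 of the 7 members. Ntrk3, Ret and Gfra2 had no entry under their symbol. The Gfra3 window was left out, so whether it holds a match is not reported. The 250 bases before the listed start site are given here because the series tests such a factor. Capitals mark every match to TNAAGTG or to its reverse complement CACTTNA. The windows were chr13:58806319-58806568 on the plus strand for Ntrk2, chr11:95587699-95587948 on the minus strand for Ngfr and chr19:58455399-58455648 on the minus strand for Gfra1.
Ntrk2: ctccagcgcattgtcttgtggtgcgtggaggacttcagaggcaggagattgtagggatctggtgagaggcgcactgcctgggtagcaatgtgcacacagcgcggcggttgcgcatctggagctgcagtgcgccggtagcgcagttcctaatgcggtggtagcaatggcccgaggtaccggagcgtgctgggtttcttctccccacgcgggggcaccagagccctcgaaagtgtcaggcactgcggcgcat
Ngfr: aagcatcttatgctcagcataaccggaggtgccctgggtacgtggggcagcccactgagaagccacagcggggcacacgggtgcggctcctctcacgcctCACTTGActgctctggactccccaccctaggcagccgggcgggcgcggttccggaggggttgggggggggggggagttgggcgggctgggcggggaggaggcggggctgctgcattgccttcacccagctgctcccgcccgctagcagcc
Gfra1: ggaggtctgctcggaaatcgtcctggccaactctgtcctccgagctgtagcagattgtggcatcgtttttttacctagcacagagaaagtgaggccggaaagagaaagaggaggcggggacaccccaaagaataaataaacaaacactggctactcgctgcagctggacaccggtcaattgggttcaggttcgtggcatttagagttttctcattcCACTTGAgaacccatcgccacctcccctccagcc
The Ngfr window held 1 match, from -150 to -144 relative to the start site, and the Gfra1 window held 1, from -34 to -28. The Ntrk2 window held none. Of 32851 promoter windows of the same length in the RefSeq table, 10.1% held at least 1 match. A match describes these letters and not binding.

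All values below are centred log2 expression values: each probe set had its own median over the 6 arrays subtracted, so 0 is that median and only differences between arrays can be read. The level of a receptor in the cord, its signal over background and the order of the receptors by level could not be seen, and for the same reason the tissue could not be checked for the presence of its markers. The targeted gene was not lower on the arrays that carry the knockout label. Nkx2-9 stood at -0.07, 0.26 and 0.11 on knockout-labelled arrays A, B and C, against -0.21, 0.07 and -0.11 on wild-type arrays A, B and C, a difference of 0.18 (SE 0.11, adjusted p = 0.812 in limma). Where its probes lie relative to the deleted part was not known. Directions therefore rest on the labels. In limma, which fitted every probe set with genotype as the only term, 0 of 28815 probe sets (0.0%) passed an adjusted p of 0.05. At an unadjusted p under 0.05 there were 1605 (5.57%), and of the 28791 probe sets with a value on every array 10.9% had groups that did not overlap.

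None of the 7 receptor genes passed the adjusted threshold, none had an unadjusted p under 0.05 in limma in either direction, and none had groups that did not overlap, beside the 5.57% (2.5% lower and 3.07% higher) and the 10.9% of the table. The estimates were negative for 6 of the 7, where 45.0% of all probe sets were negative, and their median was -0.04, against 0.0087 over the table. The 7 estimates ran from -0.37 for Ntrk2 to 0.09 for Ret. The receptors also differed in how much they varied from array to array. The SD over all 6 arrays was 0.38 for Ntrk2, larger than in 98.4% of probe sets, and 0.25 for Ntrk3, larger than in 94.4%, with Ret between them at 0.26. Gfra2 (SD 0.19) and Gfra1 (0.15) also lay above the median SD of the table, 0.085, while Ngfr (0.073) and Gfra3 (0.043) lay below it.

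**Figure D1:**
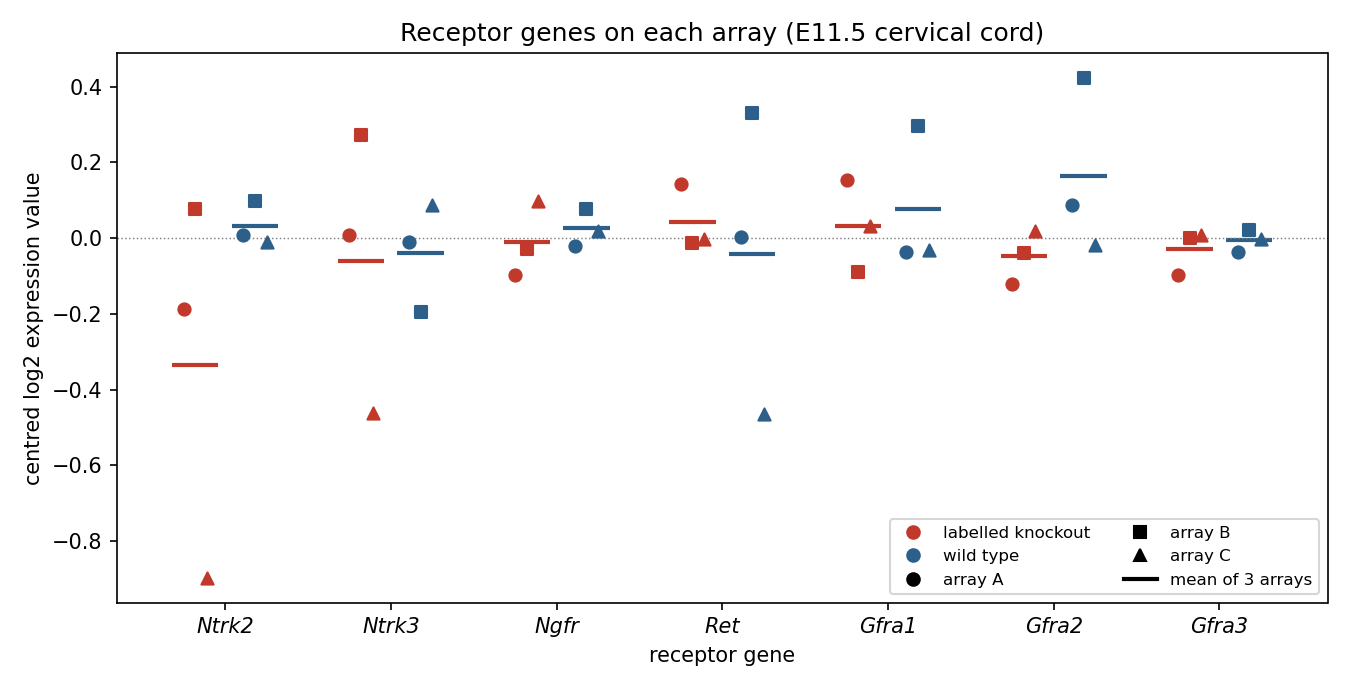
Centred log2 expression value (vertical axis) of the 7 receptor genes on each of the 6 arrays, with arrays labelled knockout in red on the left and wild type in blue on the right of each gene; marker shape gives the array letter and bars the mean of 3 arrays. Ntrk2 and Ntrk3 have their lowest value on the array labelled knockout C (-0.90 and -0.46), Gfra2, Ret and Gfra1 their highest on wild-type B (0.42, 0.33 and 0.30), and Ngfr and Gfra3 stay within 0.10 of 0 on every array.

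Of the Trk receptors, Ntrk2 had the largest estimate among the members. It stood at -0.19, 0.08 and -0.90 on knockout-labelled arrays A, B and C, against 0.0090, 0.10 and -0.0090 on wild-type arrays A, B and C. The wild-type arrays lay close together, the array labelled knockout C lay far below all others, and knockout B lay among the wild-type values, so that the groups overlapped. The mean was -0.34 ± 0.50 on knockout-labelled arrays and 0.03 ± 0.06 on wild-type arrays (SD, n = 3 each). The difference of -0.37 (SE 0.23, 1.29-fold lower) was smaller than the SD within the arrays labelled knockout and did not pass (adjusted p = 0.812 in limma). Its 95% confidence interval, from -0.93 to 0.20, reached from 1.91-fold lower to 1.15-fold higher. Only 0.889% of probe sets had a lower estimate, which for Ntrk2 rested on single arrays: without the array labelled knockout C it was -0.09 (SE 0.09), and without knockout B it was -0.57 (SE 0.20), with an unadjusted p of 0.034 and an adjusted p of 0.464 in limma.

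Ntrk3, like Ntrk2, was lowest on the array labelled knockout C. Its values were 0.0093, 0.27 and -0.46 on knockout-labelled arrays A, B and C, against -0.0093, -0.19 and 0.09 on wild-type arrays A, B and C. The highest and the lowest value of this gene were both in the arrays labelled knockout. The means, -0.06 ± 0.37 there and -0.04 ± 0.14 on wild-type arrays (SD, n = 3 each), gave a difference of -0.02 (SE 0.19, adjusted p = 0.990 in limma), with a 95% confidence interval of -0.47 to 0.43. The estimate turned to 0.18 without the array labelled knockout C, was -0.19 without knockout B, and turned to 0.06 with quantile normalization and 0.05 with array weights.

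Ngfr, the p75 receptor, was among the steadier members. It had -0.10, -0.03 and 0.10 on knockout-labelled arrays A, B and C, against -0.02, 0.08 and 0.02 on wild-type arrays A, B and C. The wild-type values lay inside the range of the arrays labelled knockout. The difference was -0.04 (SE 0.06, adjusted p = 0.936 in limma), and the 95% confidence interval of -0.19 to 0.12 held no change beyond 1.14-fold in either direction. With knockout-labelled array A left out the estimate was 0.0091.

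Ret, the kinase shared by GDNF family ligands, varied most within the wild type. Its values were 0.14, -0.01 and -0.0032 on knockout-labelled arrays A, B and C, against 0.0032, 0.33 and -0.46 on wild-type arrays A, B and C. All 3 arrays labelled knockout lay between wild-type B and wild-type C. The means were 0.04 ± 0.09 on knockout-labelled arrays and -0.04 ± 0.40 on wild-type arrays (SD, n = 3 each), with a difference of 0.09 (SE 0.19, adjusted p = 0.954 in limma) and a 95% confidence interval of -0.37 to 0.54. The estimate turned to -0.12 without wild-type C and was 0.27 without wild-type B.

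The co-receptors for GDNF and neurturin, like Ret, were highest on wild-type B. Gfra1, the co-receptor for GDNF, stood at 0.15, -0.09 and 0.03 on knockout-labelled arrays A, B and C, against -0.04, 0.30 and -0.03 on wild-type arrays A, B and C. Gfra2, the co-receptor for neurturin, stood at -0.12, -0.04 and 0.02 on knockout-labelled arrays A, B and C, against 0.09, 0.42 and -0.02 on wild-type arrays A, B and C. Both genes were highest on wild-type B. For Gfra1 the other wild-type arrays lay inside the range of the arrays labelled knockout; for Gfra2 wild-type A lay above that range and only wild-type C inside it. Gfra1 had a difference of -0.04 (SE 0.11, 95% confidence interval -0.31 to 0.22, adjusted p = 0.962 in limma), which turned to 0.07 without wild-type B and to 0.02 without the array labelled knockout B. Gfra2 had the lowest unadjusted p of the members, 0.118, at a difference of -0.21 (SE 0.12, 1.16-fold lower, 95% confidence interval -0.49 to 0.07, adjusted p = 0.812 in limma). That estimate was -0.08 when wild-type B was left out. With wild-type C left out it was -0.30, where the unadjusted p was 0.0400 and the adjusted p 0.743 in limma.

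Gfra3, the co-receptor for artemin, was the steadiest of the 7. It had -0.10, 0.0016 and 0.0090 on knockout-labelled arrays A, B and C, against -0.04, 0.02 and -0.0016 on wild-type arrays A, B and C, and the groups overlapped. The difference was -0.02 (SE 0.05, adjusted p = 0.948 in limma), with a 95% confidence interval of -0.14 to 0.09, and with knockout-labelled array A left out it was 0.01. Whether its signal stood over background could not be seen.

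**Figure D2:**
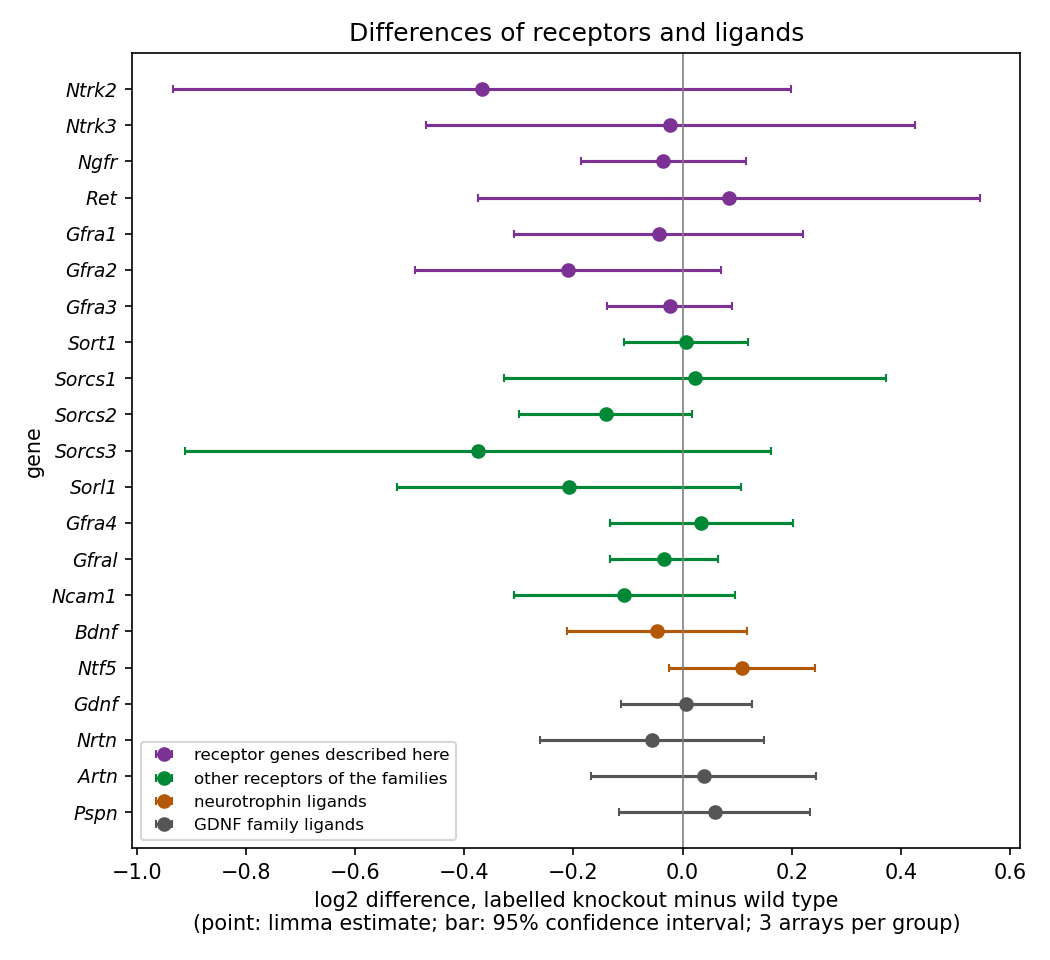
Log2 difference of the arrays labelled knockout minus the wild type (horizontal axis) for the 7 receptor genes, 8 other receptors of the same families, 2 neurotrophin genes and 4 GDNF family ligand genes; points are limma estimates and bars 95% confidence intervals from 3 arrays per group. Every interval crosses 0, and the widest among the members, those of Ntrk2 (-0.93 to 0.20), Ret (-0.37 to 0.54) and Ntrk3 (-0.47 to 0.43), belong to the receptors that varied most between arrays.

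The members were also compared with each other by their values on the 6 arrays. Likeness was measured as the root mean square difference between centred values over the 6 arrays, where a small value means that the genes had close values on every array. Among the 21 pairs of members it was smallest for Ngfr with Gfra3 (0.046), the flat pair, then for Gfra1 with Gfra2 (0.13). Ret was nearest to Gfra1 (0.18) and Ntrk2 to Ntrk3 (0.24). It was largest for Ntrk2 with Ret (0.44). A line at 0 on every array lay 0.38 from Ntrk2, 0.24 from Ntrk3 and 0.24 from Ret, so Ntrk3 was no nearer to Ntrk2 than to that line, and Ret was little nearer to Gfra2 (0.22). Gfra1 had an SD of 0.15 over the 6 arrays, so its 0.13 from Gfra2 was only a little below its own spread. Its 0.18 from Ret lay above that spread.

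The genes of the table most like the 3 most variable members were found by the same measure among 19919 genes. For Ntrk2 the nearest gene was Sorcs3 (0.065), which encodes a sortilin-related receptor of the family that binds neurotrophin precursors, and the next was Rnf152 (0.090). Sorcs3 had -0.30, 0.12 and -0.83 on knockout-labelled arrays A, B and C, against -0.05, 0.11 and 0.05 on wild-type arrays A, B and C. It thus shared with Ntrk2 the very low value on the array labelled knockout C and the small dip on knockout A. For Ntrk3 the nearest were Mab21l2 (0.071) and Thsd7a (0.071), with -0.48 and -0.40 on the array labelled knockout C. For Ret they were Cers4 (0.095) and Tmem87b (0.096), with 0.26 and 0.21 on wild-type B and -0.26 and -0.31 on wild-type C. With 6 arrays and so many genes, close profiles are found for most patterns, and the measure describes these arrays only.

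Marker genes of some cell types stood apart on the arrays where receptors did. On the array labelled knockout C, where Ntrk2 and Ntrk3 were lowest, the median of 10 mesenchyme genes was 0.96, where the remaining 5 arrays had -0.06 to 0.16, and that of 7 vessel genes was 0.98, against -0.13 to 0.14. Single genes chosen after their values were seen reached 3.01 (Foxc2), 2.32 (Twist1) and 1.74 (Pdgfra) there. All 10 mesenchyme genes were above 0 on that array, the lowest being Col1a1 at 0.03. Of the 7 vessel genes 6 were above 0, and Rgs5 stood at -0.17. Col1a1 and Rgs5 were also chosen after their values were seen. On the same array Tfap2b, a factor of neural crest and of dorsal neurons, stood at -1.88 and Pou4f1, a factor of sensory and dorsal neurons, at -0.57; Pou4f1 was likewise chosen after its value was seen. The other 5 crest genes were above 0 on that array, with a list median of 0.29, and the medians of the dorsal root ganglion and dorsal cord genes there were -0.03 and -0.04. The median of 11 genes of differentiated neurons was lowest there, at -0.17. In such bulk tissue, fewer cells of a type and less RNA per cell cannot be told apart, and the part of these differences in tissue composition in the Ntrk2 and Ntrk3 values was not tested.

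Ret, Gfra1 and Gfra2 shared their high value on wild-type B with some neuronal, mesenchyme and vessel markers. The mesenchyme and vessel medians on wild-type B were 0.16 and 0.14, with 9 of 10 and 7 of 7 genes above 0. That of 9 cell cycle genes was at its lowest there, -0.59, and that of differentiated neuron genes was 0.15. On this array, where Gfra2, Ret and Gfra1 were highest, the median of 11 motor neuron genes was also at its highest, 0.13. Prph, a peripheral intermediate filament of motor and sensory neurons, was at 0.68 and Slc5a7, the choline transporter, at 0.73 on that array, the highest of the 11 genes there; 5 of the 11 were below 0, the lowest being Phox2a at -0.17 and Tbx20 at -0.16, both chosen after their values were seen. On wild-type C, where Ret was lowest, the motor neuron median was also lowest, -0.17, whereas Gfra1 and Gfra2 were near 0 there; Isl1, a motor and sensory neuron factor chosen after its values were seen, was at -0.31 there and 0.35 on wild-type B. The motor neuron list as a whole had a median difference of -0.0031, with 6 of 11 genes lower and 5 higher, and 0 of 11 passing the adjusted test. The lowest p in it belonged to Isl2 (0.18, SE 0.07), Prph (-0.40, SE 0.18) and Slc5a7 (-0.37, SE 0.22). The parts of motor neuron number and of mesenchyme or vessel tissue in the Ret, Gfra1 and Gfra2 values were not tested.

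**Figure D3:**
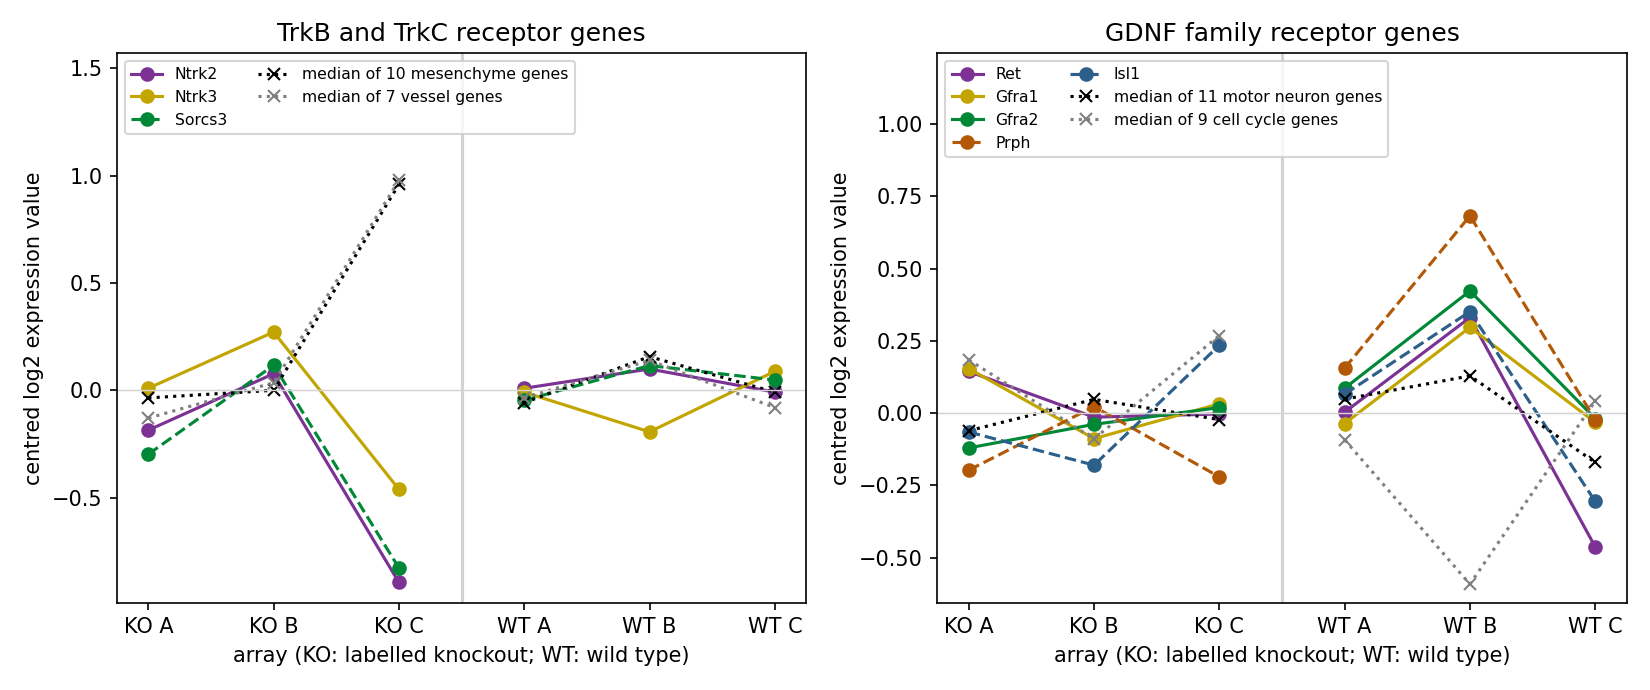
Centred log2 expression value (vertical axis) on the 6 arrays (horizontal axis, KO for arrays labelled knockout, WT for wild type); solid lines are receptor genes, dashed lines other named genes, and dotted lines medians of marker lists. Lines only join the values of 1 gene or list within a group, since replicates have no order. On the left, Ntrk2, Ntrk3 and Sorcs3 are lowest on the array labelled knockout C, where mesenchyme and vessel medians are 0.96 and 0.98; on the right, Ret, Gfra1, Gfra2, Prph and Isl1 are highest on wild-type B, where the cell cycle median is -0.59.

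Sensory neurons of the ganglia and derivatives of the neural crest are also known to express these receptors. The 8 measured dorsal root ganglion genes had medians of -0.03 to 0.07 on the arrays labelled knockout and -0.08 to 0.04 on the wild-type arrays, with 3 lower and 5 higher. Runx3 was at 0.18 (SE 0.07), Prrxl1 at 0.11 (SE 0.06) and Sncg at -0.22 (SE 0.15), none past the adjusted test. The 6 genes of neural crest and Schwann cell precursors had medians of -0.11, -0.0044 and 0.29 on knockout-labelled arrays A, B and C, against -0.15 to 0.04 in the wild type. Ngfr, which such cells also express, had its highest value of 0.10 on knockout C too. It was nearly as high on wild-type B, at 0.08, where the crest median was 0.04. The part of crest cells in the Ngfr values was not tested. Over the marker lists, the median difference was 0.31 for mesenchyme, 0.27 for vessels, 0.34 for cell cycle, 0.22 for 6 erythroid genes, 0.18 for 5 floor plate genes, 0.04 for dorsal root ganglion and 0.03 for crest genes. It was -0.30 for 17 Hox genes (Hoxa5 to Hoxd10, 14 lower and 3 higher), -0.13 for differentiated neurons and -0.05 for 8 macrophage genes. It was -0.01 for 9 dorsal cord genes and -0.0082 for 8 neural progenitor genes, and no marker passed the adjusted test. Of the 17 posterior Hox genes 7 had an unadjusted p under 0.05 in limma, all lower and with groups that did not overlap, as did 3 of the 5 floor plate genes, all higher, beside 2.5% of the table lower, 3.07% higher and 10.9% not overlapping. The part of axial level or of floor plate tissue in the receptor values was not tested. Without the array labelled knockout C the mesenchyme and vessel median differences turned to -0.04 and -0.07. Without wild-type B the cell cycle and erythroid median differences were 0.16 and 0.04.

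The ligands of both families showed small differences. Of the neurotrophin genes, 2 of 4 had a probe set of their own, Bdnf at -0.05 (SE 0.07) and Ntf5, which encodes neurotrophin 4, at 0.11 (SE 0.06). Ntf5 had 0.12, -0.0049 and 0.05 on knockout-labelled arrays A, B and C, against -0.13, -0.04 and 0.0049 on wild-type arrays A, B and C, and the groups overlapped only through knockout B and wild-type C. All 4 GDNF family ligand genes were measured: Gdnf was at 0.0067 (SE 0.05), Nrtn, neurturin, at -0.06 (SE 0.08), Artn, artemin, at 0.04 (SE 0.09) and Pspn, persephin, at 0.06 (SE 0.07). No ligand passed the adjusted test or had an unadjusted p under 0.05 in limma. These factors are known to be made largely by the targets of the axons.

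Among the other receptors of the families, 8 of 9 had a probe set of their own, 5 lower and 3 higher, and 0 passed. Sorcs3 had the largest estimate, -0.38 (SE 0.22, 95% confidence interval -0.91 to 0.16, adjusted p = 0.812 in limma), which like that of Ntrk2 depended on the array labelled knockout C, without which it was -0.13. Sorl1, a sortilin-related sorting receptor, was at -0.21 (SE 0.13) with 0.44 on wild-type B, and at -0.06 without that array. Sorcs2, a co-receptor of p75 for neurotrophin precursors, was at -0.14 (SE 0.07) and had the lowest unadjusted p of the 8, 0.0726. Ncam1, an alternative receptor for GDNF, was at -0.11 (SE 0.08). The remaining 4, Sort1 (sortilin, 0.0067), Sorcs1 (0.02), Gfra4 (the persephin co-receptor, 0.03) and Gfral (-0.03), had estimates near 0, although the interval of Sorcs1, from -0.33 to 0.37, was wide.

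Adaptors and partners that carry the signal of these receptors were lower more often than higher, with 18 of the 23 measured genes negative (45.0% of all probe sets were) and a median of -0.05. No gene passed the adjusted test. Of the 23, 2 had an unadjusted p under 0.05 in limma, 1 in each direction, beside 2.5% of the table lower and 3.07% higher. Lingo1, a p75 co-receptor that restrains axon growth, had -0.09, -0.02 and -0.15 on knockout-labelled arrays A, B and C, against 0.02, 0.27 and 0.15 on wild-type arrays A, B and C. Plcg1, the phospholipase that Trk receptors activate, had 0.10, 0.04 and 0.13 on knockout-labelled arrays A, B and C, against -0.04, -0.07 and -0.28 on wild-type arrays A, B and C. Neither gene's groups overlapped. In all, 4 of the 23 genes had groups that did not overlap, beside 10.9% of the table. The differences of Lingo1 and Plcg1 were -0.23 (SE 0.08) and 0.22 (SE 0.07), with adjusted p = 0.812 for both in limma. Plcg1 was at 0.14 without wild-type C. Rtn4r, the Nogo receptor and a partner of p75, followed at -0.22 (SE 0.09), and at -0.15 without the array labelled knockout C.

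Genes that the receptors induce through ERK signalling showed no common direction, with 6 of 12 lower, 6 higher and a median of -0.01. Fos, an immediate early gene, had 0.02, 0.02 and 0.30 on knockout-labelled arrays A, B and C, against -0.20, -0.02 and -0.15 on wild-type arrays A, B and C. Its difference of 0.24 (SE 0.09, unadjusted p = 0.0402, adjusted p = 0.812 in limma) was 0.14 without the array labelled knockout C. Dusp6, an ERK phosphatase, was at 0.33 (SE 0.16) with 0.48 on knockout C, and at 0.17 without it. Spred2, an inhibitor of the same pathway, was at -0.16 (SE 0.08), and its second probe set was at -0.03 (SE 0.10). Etv4, the ETS factor that GDNF induces in some motor neuron pools, was chosen after its values were seen; it stood at -0.07, 0.06 and -0.10 on knockout-labelled arrays A, B and C, against 0.05, 0.54 and -0.05 on wild-type arrays A, B and C. Its high value on wild-type B matched that of Gfra2, Ret and Gfra1, and its difference of -0.22 (SE 0.15) was -0.04 without that array.

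Receptors for other trophic factors of motor neurons were compared last, in a list that also held the ligand gene Clcf1. Of its 6 measured genes the 5 receptors were lower and Clcf1 higher, with a median of -0.05, and 0 passed. Met, the receptor for hepatocyte growth factor, which guides and sustains subsets of motor neurons, had -0.18, -0.01 and -0.03 on knockout-labelled arrays A, B and C, against 0.47, 0.41 and 0.01 on wild-type arrays A, B and C. Its groups did not overlap, since wild-type C lay just above all arrays labelled knockout, and the difference was -0.37 (SE 0.13, 95% confidence interval -0.67 to -0.07, unadjusted p = 0.024, adjusted p = 0.812 in limma). Over the 6 settings that each left out 1 array it stayed between -0.51 and -0.29. Without knockout-labelled array A, wild-type A or wild-type B, no gene of the list, Met included, had an unadjusted p under 0.05 in limma. Lifr, the receptor for leukaemia inhibitory factor, was at -0.24 (SE 0.18) and at -0.08 without wild-type B, and Clcf1, a ligand of the related CNTF receptor, at 0.04 (SE 0.05). Over all 55 measured pathway genes other than the members, 36 were lower and 19 higher, with a median of -0.04. The unadjusted p was under 0.05 for 4 of these 55, 2 lower and 2 higher, beside 2.5% of the table lower and 3.07% higher.

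**Figure D4:**
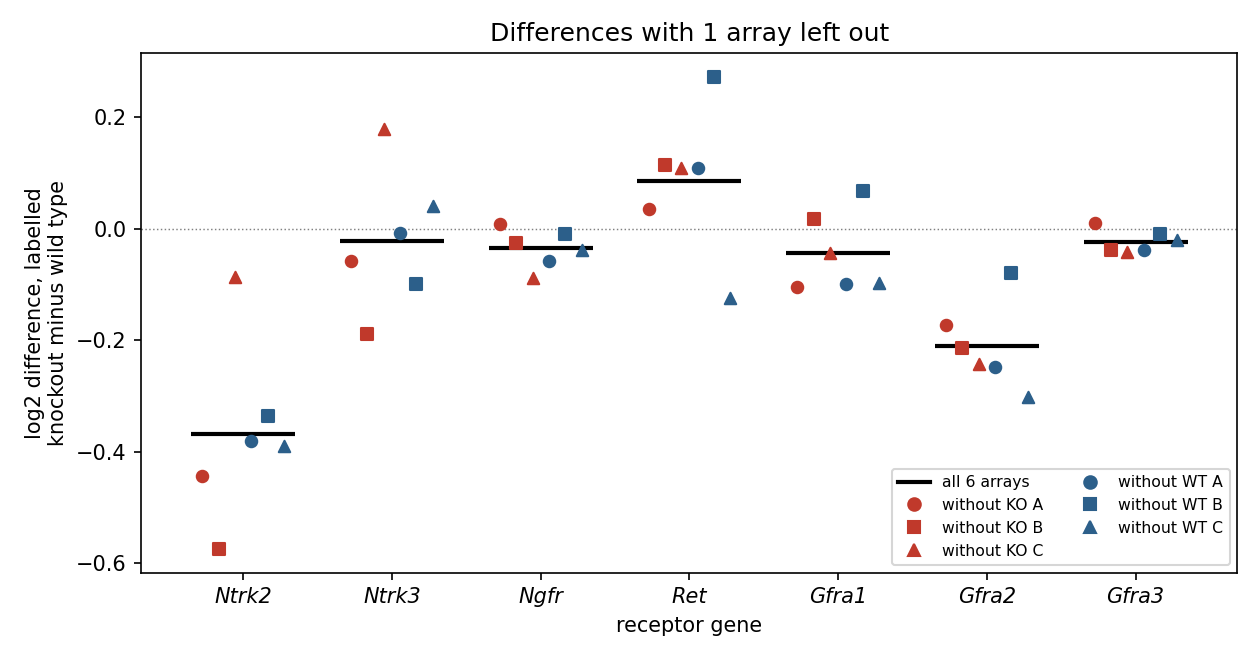
Log2 difference of the arrays labelled knockout minus the wild type (vertical axis) for each receptor gene with all 6 arrays (black bar) and with 1 array left out (points; KO for arrays labelled knockout, WT for wild type). Ntrk2 stays below 0 but moves between -0.57 and -0.09, Gfra2 between -0.30 and -0.08, and the estimates of the other 5 receptors cross 0.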

How the data were processed

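RNA from 6 samples was amplified into sense-strand cDNA, biotin-labelled and hybridised to whole-transcript arrays, per the labels' protocols. The log2 values deposited came from RMA as the authors ran it, per the submitters' processing notes; its settings and the log base are not given in the sources used here, and base 2, which RMA uses, was assumed. In the file every probe set complete on 6 arrays had a median of 0 within 1e-06; 24 probe sets had no value on wild-type C and were fitted on 5 arrays. The number of arrays limits the precision.

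Genes were named from the platform annotation, only where a probe set had 1 symbol (21780 had 1, 1605 several, 5430 none); 21689 Entrez identifiers were found in RefSeq GRCm38.p6, which changed 0 symbols. For a gene with several probe sets, the one with the most accessions was used. The arrays labelled knockout were compared with the wild type by limma 3.58.1 in R 4.3.3 on all probe sets, with Benjamini-Hochberg adjustment over all of them and a threshold of 0.05; SEs and 95% confidence intervals are from the moderated fit. Data were also simulated over 28791 probe sets with independent normal noise at the SDs of this comparison. A known change was given to 200 of them, drawn at random over all SDs. In these data limma called 79.1% of 67 probe sets changed 1.5-fold and 91.0% of 67 changed 2-fold. These shares average over SDs. They do not give the sensitivity for variable probe sets such as Ntrk2, nor for the real table, whose noise may not be independent.

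The members, the 6 pathway lists and the 13 marker lists were chosen with earlier results of these data known. Named were the members, all ligands and other receptors, and for members with an SD of at least 0.2 the 2 most alike genes. The 3 genes of lowest p were named in the remaining pathway lists and in the motor neuron and dorsal root ganglion lists. Of the 3 crest genes of lowest p only Tfap2b was named, and the other marker lists had none named by this rule. Others are marked in the text. Lists are described by counts and medians. Alternatives left out each array, took the letter as a replicate block, weighted arrays, centred them on their medians, quantile-normalized them or used a robust variance prior. The letters stand only in the titles and were not taken to pair arrays in the main fit. Deviations from group means correlated over probe sets at 0.165 (A), 0.216 (B) and 0.0159 (C) between arrays of the same letter. Between letters the values ran from -0.187 (knockout B with wild-type A) to 0.0436 (knockout A with wild-type C). The same-letter values of A and B were thus the highest, and these values do not settle whether the letters pair arrays. Figures used matplotlib 3.10.9.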

Additional observations from a re-analysis of the deposited data

How the results depend on the processing

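Leaving out 1 array moved the receptor estimates (log2 difference, arrays labelled knockout minus wild type) between -0.57 and -0.09 for Ntrk2, -0.19 and 0.18 for Ntrk3, -0.089 and 0.0091 for Ngfr, -0.12 and 0.27 for Ret, -0.10 and 0.067 for Gfra1, -0.30 and -0.08 for Gfra2 and -0.042 and 0.011 for Gfra3. No receptor passed the adjusted threshold in limma under any of the 11 alternatives run, where the lowest adjusted p was 0.464, for Ntrk2 without knockout array B. Receptors at an unadjusted p under 0.05 numbered 0 to 1 with an array left out: Ntrk2 without knockout array B and Gfra2 without wild-type C. Pathway genes at that level, 4 of 55 with all arrays, beside 5.57% of the table, numbered 2 to 10 of 55. The 10 were found without knockout array B, where the count over the table was also highest. Over the whole table, 0 to 5 probe sets passed the adjusted threshold with an array left out, 5 of them without knockout array A, none of which was a receptor or pathway gene. The 1605 of 28815 probe sets at an unadjusted p under 0.05 became 977 without wild-type B and 2871 without knockout array B. Of the other settings, quantile normalization turned Ntrk3 to 0.062 and array weights turned it to 0.051, and the cause was not tested; every other receptor kept its direction under these 2, under median centring and under a robust variance prior.

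With the letter as a replicate block, 7 of 55 pathway genes and 2552 of 28815 probe sets had an unadjusted p under 0.05 in limma. No receptor did, Ntrk2 stayed at -0.37 and no adjusted call changed. A mean over several probe sets per receptor was not run because each had 1. Signal over background could not be judged from centred values.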
